A study of Mus musculus with 9 samples.

Results

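Accessible chromatin was compared between 6 knockout libraries taken as 1 group and 3 wild type libraries, and the peaks that stood apart from wild type in the same direction in both knockouts were described. The members were the 6 knockout samples of the 9 in the series (3 Il21e_KO and 3 Stat6_KO), set against the 3 WT samples over all 115727 listed peaks. All 9 came from naive CD4+ T cells without treatment, taken from C57BL/6 mice and isolated ex vivo by negative selection, with 50000 cells tagmented for 30 minutes. Stat6_KO mice lack Stat6. The allele of the Il21e_KO mice is called both Il21e KO and IL21KO in the labels, which do not say what DNA it removes, whether the knockouts are constitutive, or how old the animals were. The labels do not say whether the libraries of a genotype came from separate animals, so the p-values measure only the spread between these samples.

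ATAC-seq uses a transposase that cuts where DNA is not wrapped by nucleosomes, and the reads that pile up there mark promoters and enhancers. STAT6 is the transcription factor activated by the interleukin-4 receptor and drives T helper type 2 (Th2) differentiation. Interleukin-21 is made mainly by activated and follicular helper T cells and signals through its receptor and STAT3. A naive CD4+ T cell has met no antigen, is kept quiet by factors such as TCF1, LEF1 and FOXO1, and survives on interleukin-7. Peaks moved in the absence of either gene are what the pooled comparison looks for. No peak passed it with all 9 libraries, and 53 passed when 1 library that stood apart was left out.

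Some of the peaks that lay apart from WT in all 6 knockout libraries were at transcription start sites (TSS). The 250 bases upstream of 4 such genes are shown, 2 with higher and 2 with lower values in the knockouts, because they are the regulatory DNA closest to those peaks. They were chosen after the motif search, from 10 with a single RefSeq promoter, and include both promoters of the 10 that held a STAT palindrome, so the share among those shown says nothing of the set. Both spacings of the STAT palindrome (TTCNNNGAA and TTCNNNNGAA, the same on both strands; the second is the spacing that STAT6 favours) and the GC box GGGCGG (on both strands, the other strand reading CCGCCC) were searched, with matches printed in capitals. No match overlapped another. The sequences are RefSeq promoters of the GRCm38.p6 build, while the peaks are on mm9, so the letters were matched by gene symbol and not by position. Lrig3 is chr10:125965969-125966218 (plus strand), Chac1 chr2:119350992-119351241 (plus strand), Kif16bos chr2:142902715-142902964 (plus strand) and Itgb8 chr12:119238277-119238526 (minus strand).
Lrig3: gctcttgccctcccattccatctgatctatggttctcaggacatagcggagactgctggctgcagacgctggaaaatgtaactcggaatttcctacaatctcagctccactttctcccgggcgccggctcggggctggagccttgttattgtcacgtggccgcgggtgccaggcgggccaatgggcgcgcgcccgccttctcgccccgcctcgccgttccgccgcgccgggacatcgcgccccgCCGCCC
Chac1: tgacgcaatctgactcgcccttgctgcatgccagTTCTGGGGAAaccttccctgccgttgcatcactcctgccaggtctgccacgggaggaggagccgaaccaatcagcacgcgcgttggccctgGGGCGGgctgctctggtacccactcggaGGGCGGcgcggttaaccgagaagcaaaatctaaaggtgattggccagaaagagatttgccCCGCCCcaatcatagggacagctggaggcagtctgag
Kif16bos: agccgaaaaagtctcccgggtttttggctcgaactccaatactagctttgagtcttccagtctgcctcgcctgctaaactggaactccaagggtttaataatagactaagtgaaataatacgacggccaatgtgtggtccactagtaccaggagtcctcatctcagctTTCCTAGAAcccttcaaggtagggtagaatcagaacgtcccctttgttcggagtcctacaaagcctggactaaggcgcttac
Itgb8: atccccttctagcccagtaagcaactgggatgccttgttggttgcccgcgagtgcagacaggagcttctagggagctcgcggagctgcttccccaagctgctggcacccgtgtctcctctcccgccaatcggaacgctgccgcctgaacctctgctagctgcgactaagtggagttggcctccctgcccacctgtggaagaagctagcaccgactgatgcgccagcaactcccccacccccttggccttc

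Chac1, with higher values in the knockouts, held 1 TTCNNNNGAA and 3 GC boxes. Kif16bos, with lower values, held 1 TTCNNNGAA. Lrig3 held 1 GC box and Itgb8 none of the 3 motifs. Among the 11294 genes with a tested TSS peak, 8666 were in the RefSeq table and 6910 had a single promoter there. Of those 6910, 5.86% held TTCNNNGAA, 4.5% held TTCNNNNGAA and 62.3% held a GC box. Among the promoters of the broad rule described below, TTCNNNGAA was in 0 of 6 higher and 1 of 4 lower, TTCNNNNGAA in 1 and 0, and the GC box in 2 and 1. A match in these letters is a description and does not show that a factor binds.

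The libraries held 1049460 to 1802405 reads in peaks, and each value is a CPM, the reads of a peak relative to the total that its library had over the listed peaks. Il21e_KO 1 stood apart from the other libraries. It had no read in 27200 peaks against 3898 to 12916 elsewhere, and 42.7% of its reads lay in TSS peaks against 31.6% to 36.4%. Pooled over all 9 libraries, no difference between knockouts and WT was detected in reads in peaks, peaks without a read or the TSS share (exact 2-sided permutation p = 0.595, 0.690 and 0.786, where 0.0238 is the smallest possible). Peaks without a read numbered 5033 ± 927 (SD, n = 5) in the 5 other knockout libraries and 10543 ± 3320 in WT (SD, n = 3). This is given with no test, since Il21e_KO 1 stood apart in that same measure, and its part in the results below was not tested. The main results are given with and without that library. Promoter peaks of 8 of 8 naive CD4 T markers were listed, with Tcf7 at 58.3 to 87.2 CPM and Cd4 itself at only 2.45 to 8.38. Summed over their peaks, B cell markers gave 92.6 to 147 CPM in WT and 75.3 to 126 in the knockouts, CD8 T markers 192 to 211 and 160 to 202, and myeloid markers 174 to 227 and 144 to 202. NK markers gave 326 to 350 and 295 to 398, and erythroid markers 34.3 to 45.1 and 30.5 to 42.2. The TSS peaks of Cd79b, Pax5 and Spi1 had no read in at least 1 library. Others of the B cell and myeloid lists had reads in every library, several of them above Cd4: Cd14 at 30.6 to 44.4 CPM, Cebpa at 13.3 to 36.6, Ebf1 at 8.58 to 16.1, Itgam at 4.76 to 13.5 and Ms4a1 at 2.45 to 13.5. Of the CD8 T list, Cd8b1 stood at 30.0 to 40.5 CPM, Nkg7 at 5.50 to 17.1 and Eomes at 5.45 to 11.1. Of the NK list, Prf1 stood at 25.8 to 44.8 CPM, Klrd1 at 5.72 to 15.1 and Ncr1 at 0.612 to 3.88. Cd8a and Klrb1c had no TSS peak. The part of other cell types in the results was not tested.

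**Figure D1:**
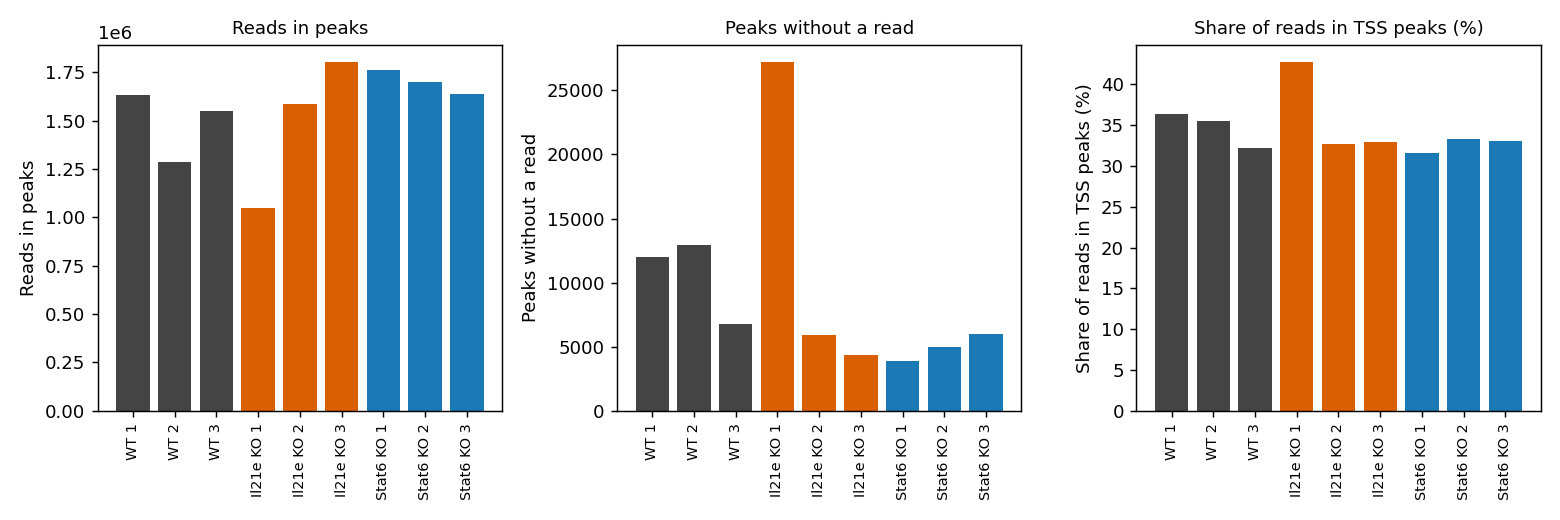
Bars give, for each library, the reads in peaks, the number of the 115727 peaks without a read and the percentage of reads in TSS peaks; grey is WT, orange Il21e_KO and blue Stat6_KO. Il21e_KO 1 has 1049460 reads, 27200 peaks without a read and 42.7% of reads at TSS peaks, apart from the other libraries in all 3 panels.

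With all 9 libraries, 0 of 48287 tested peaks passed the test of the pooled knockouts against WT (0%; limma-trend, lowest adjusted p = 0.926), so 0 peaks met the strict rule of a pooled call that each knockout repeats. An unadjusted p under 0.05 was reached by 659 higher and 578 lower peaks, together 2.56% of those tested. edgeR and DESeq2 each called 1 peak, near Pkdcc, and limma-voom called 0. All 6 knockout libraries lay above all 3 WT libraries at 410 peaks (0.849%) and below them at 518 (1.07%). Where each knockout in addition reached an unadjusted p under 0.05 in that direction (the broad rule), 96 peaks were higher (0.199%) and 67 lower (0.139%). These 163 peaks are described by their values, and none is a call. The filter for tested peaks asked for its minimum count in as many libraries as the smallest group holds. The peaks of Pkdcc, Mmp10, Trp53cor1 and Dars met it through WT alone. Those of Mid1 (at its TSS), Pde12, Ctsh, Lrig3 and Map1lc3b met it through the knockouts alone. The separation at all of these peaks was thus partly set by the filter. Both knockouts were set against the same WT libraries, so a WT value that is high or low moves both in 1 direction.

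Of the higher and lower peaks, 32 and 21 lay between genes, 34 and 22 in introns, and 10 and 9 at a TSS. TSS peaks made up 10.4% of the higher and 13.4% of the lower peaks, beside 24.7% of all tested. The peaks were also weak ones, with a median of 9.73 CPM (higher) and 10.8 CPM (lower) beside 14.6 CPM over all tested. Il21e_KO 1 was the lowest of the 9 libraries at 24 of the 67 lower peaks, and the lowest knockout library at 36 of the 96 higher peaks. Between the knockouts themselves, 0 of the 163 peaks differed (limma-trend, lowest adjusted p = 0.780, 0 at an unadjusted p under 0.05). The median size of that difference was 0.12 on the log2 scale, beside 0.70 for the pooled difference from WT, and the rule itself requires both knockouts to lie on 1 side.

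Pkdcc, which encodes a secreted tyrosine kinase, had the lowest difference from WT of the 163 peaks, at an intergenic peak 56.4 kb from its TSS (chromosome 17, 83557263 to 83558202). WT libraries stood at 7.95, 19.5 and 18.1 CPM, Il21e_KO at 0.953, 1.89 and 2.22, and Stat6_KO at 3.98, 2.94 and 3.06. Every knockout library lay at most at 3.98 CPM and every WT library at 7.95 or more. The pooled log2 difference was -2.17 ± 0.39 (SE; limma-trend adjusted p = 0.926 with 9 libraries), on log2(CPM + 1), which understates the change of weak peaks. Without Il21e_KO 1 it was -2.02 ± 0.31 and passed (limma-trend adjusted p = 0.000896). With 8 libraries, it passed in 20 of the 21 alternative settings in which it was tested, which do not include the stricter filter. Its knockout libraries held 1 to 7 reads, so the peak met the filter through WT alone. Stat6_KO minus Il21e_KO was between -0.20 and 1.62 (95% interval).

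The next 2 lower peaks lie at a protease gene and a long noncoding RNA. Near the end of Mmp10, a matrix metalloproteinase gene (chromosome 9, 7509720 to 7510301), WT held 9.18, 13.2 and 8.38 CPM, Il21e_KO 2.86, 2.52 and 4.44, and Stat6_KO 3.41, 2.94 and 3.06. In what the table calls a 3′ untranslated exon of Trp53cor1, the p53-induced noncoding RNA next to Cdkn1a (chromosome 17, 29202219 to 29203294), WT held 10.4, 16.3 and 7.74 CPM, Il21e_KO 2.86, 4.41 and 4.44, and Stat6_KO 3.98, 5.3 and 3.06. The groups did not overlap at either peak. The pooled differences were -1.41 ± 0.32 and -1.28 ± 0.31 (SE), neither a call with 9 libraries, and both passed with 8 (limma-trend adjusted p = 0.0365 and 0.0443), though in only 11 and 10 of 21 alternative settings. Ppp2r5c, a regulatory subunit gene of the phosphatase PP2A, had 2 of the lower peaks, 117 kb apart. The first, between genes, held 14.7, 17.9 and 18.1 CPM in WT and 4.76 to 11.2 in the knockouts. At the second, in intron 1, the levels were 38.0 to 44.1 CPM in WT and 27.8 to 31.6 in the knockouts. Neither passed with 8 libraries (adjusted p = 0.0609 and 0.0821, limma-trend).

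The rest of the lower peaks with the smallest p lay in Plek (pleckstrin, a cytoskeletal adaptor of blood cells), Slco3a1 (an organic anion transporter), Cmtm7, Dars (aspartyl-tRNA synthetase) and Nrxn3 (a synaptic adhesion protein) and near Dad1 (a subunit of the oligosaccharyltransferase, next to the T cell receptor alpha locus). The peak assigned to Dad1 lies between genes, 211 kb from the TSS of that gene. Plek intron 9 was the strongest of these peaks, with 26.3, 29.6 and 38.0 CPM in WT against 14.3 to 22.7 in the 6 knockout libraries. The Dars intron 4 peak was the weakest in the knockouts, at 0.953 to 3.67 CPM against 6.12 to 10.3 in WT. Their pooled log2 differences ran from -0.67 to -1.64, and 0 of these 6 passed with 8 libraries.

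Sel1l, part of the complex that removes misfolded proteins from the endoplasmic reticulum, was the nearest gene to the higher peak with the smallest p, though its TSS is 1380 kb away (chromosome 12, 94468597 to 94469311). WT held 8.57, 7.01 and 11.6 CPM, Il21e_KO 17.2, 18.9 and 18.3, and Stat6_KO 18.8, 21.2 and 19.0. The 6 knockout libraries spanned 17.2 to 21.2 CPM and stayed clear of WT. The pooled log2 difference was 1.01 ± 0.18 (SE; limma-trend adjusted p = 0.926 with 9 libraries) and 1.03 ± 0.17 without Il21e_KO 1 (limma-trend adjusted p = 0.00460). With 8 libraries it passed in 20 of 22 alternative settings, and Stat6_KO minus Il21e_KO lay between -0.34 and 0.55 (95% interval).

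Intron 5 of Osbpl9, an oxysterol-binding protein gene (chromosome 4, 108766780 to 108767620), held 7.95, 12.5 and 7.74 CPM in WT, 16.2, 21.4 and 19.4 in Il21e_KO and 14.2, 15.9 and 20.8 in Stat6_KO. Its pooled log2 difference of 0.89 ± 0.20 (SE) passed with 8 libraries only (0.91 ± 0.18, limma-trend adjusted p = 0.0210), in 17 of 22 alternative settings. At the TSS of Lrig3, a leucine-rich repeat membrane protein whose promoter is printed above (chromosome 10, 125403126 to 125404078), WT held 2.45, 1.56 and 5.80 CPM, Il21e_KO 7.62, 8.19 and 6.66, and Stat6_KO 9.09, 10.01 and 9.79. The highest WT library lay just under the lowest knockout library. The pooled log2 difference was 1.28 ± 0.31 (SE) with 9 libraries, and 1.304 ± 0.29 with 8 (limma-trend adjusted p = 0.0385), a call in 9 of 21 alternative settings.

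Mid1, which encodes a microtubule-associated ubiquitin ligase and in C57BL/6 mice crosses the pseudoautosomal boundary of the X chromosome, had 3 higher peaks, 2 of them adjoining and the other 16.1 kb away. At its TSS peak (chromosome X, 166317321 to 166317714) WT held 1, 0 and 3 reads, Il21e_KO 7, 8 and 12, and Stat6_KO 11, 9 and 7. The WT libraries are at or under the 3 reads that a count of 0 allows. The other peaks, in 5′ untranslated exons, held 1.84 to 3.87 and 1.84 to 2.58 CPM in WT against 5.11 to 10.01 and 2.86 to 8.88 in the knockouts. At the latter peak the 2.86 CPM are 3 reads in Il21e_KO 1, beside 3, 3 and 4 reads in WT. That library lay above WT there only through the scaling to its lower read total. None of the 3 passed with 8 libraries (limma-trend adjusted p = 0.0637, 0.0803 and 0.0957). The labels do not give the sex of the mice.

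P2ry10 and Irs2 are 2 further higher peaks near genes of lymphocyte signalling. P2ry10 encodes a lysophospholipid receptor of lymphocytes, and the peak at its end (chromosome X, 104300126 to 104300980) held 9.79, 10.9 and 4.51 CPM in WT, 13.3, 16.4 and 12.2 in Il21e_KO, and 19.3, 17.7 and 22.0 in Stat6_KO. Irs2 encodes an adaptor of the insulin and interleukin-4 receptors, and the peak 89.7 kb away (chromosome 8, 11098157 to 11098833) held 6.73, 4.67 and 3.87 CPM in WT, 8.58, 13.2 and 13.3 in Il21e_KO, and 13.1, 8.24 and 9.17 in Stat6_KO. No knockout library overlapped WT at either. Both passed with 8 libraries, at 1.03 ± 0.20 and 1.03 ± 0.23 (log2, SE; limma-trend adjusted p = 0.0178 and 0.0385). P2ry10 was called in 15 of 22 alternative settings, and Irs2 in 8, so that most of them ended the Irs2 call. The peaks near Pde12 (a mitochondrial RNA-trimming enzyme) and Ctsh (cathepsin H) rose as well with 8 libraries (1.501 and 1.41 on the log2 scale), but in only 6 of 20 and 10 of 21 alternative settings. Those near Map1lc3b (the autophagosome protein LC3) and in M1ap (a meiosis gene) did not pass.

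**Figure D2:**
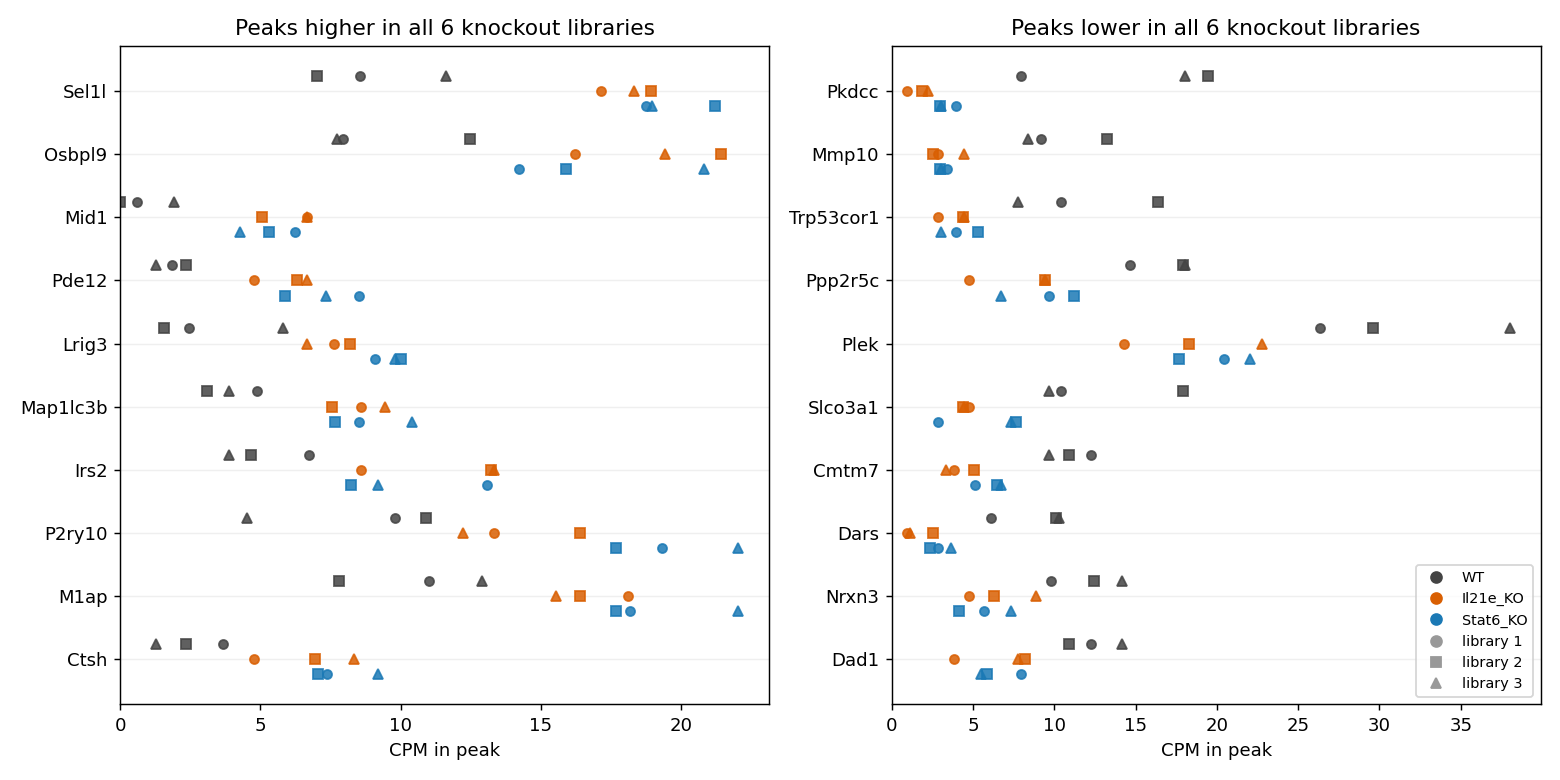
Points give the CPM of each library at the 10 higher and 10 lower peaks with the smallest pooled p under the broad rule, each row a peak named by its gene, with WT in grey, Il21e_KO in orange and Stat6_KO in blue, and the marker shape the library number. In every row the 6 knockout points lie on 1 side of the 3 WT points, which the rule requires.

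**Figure D3:**
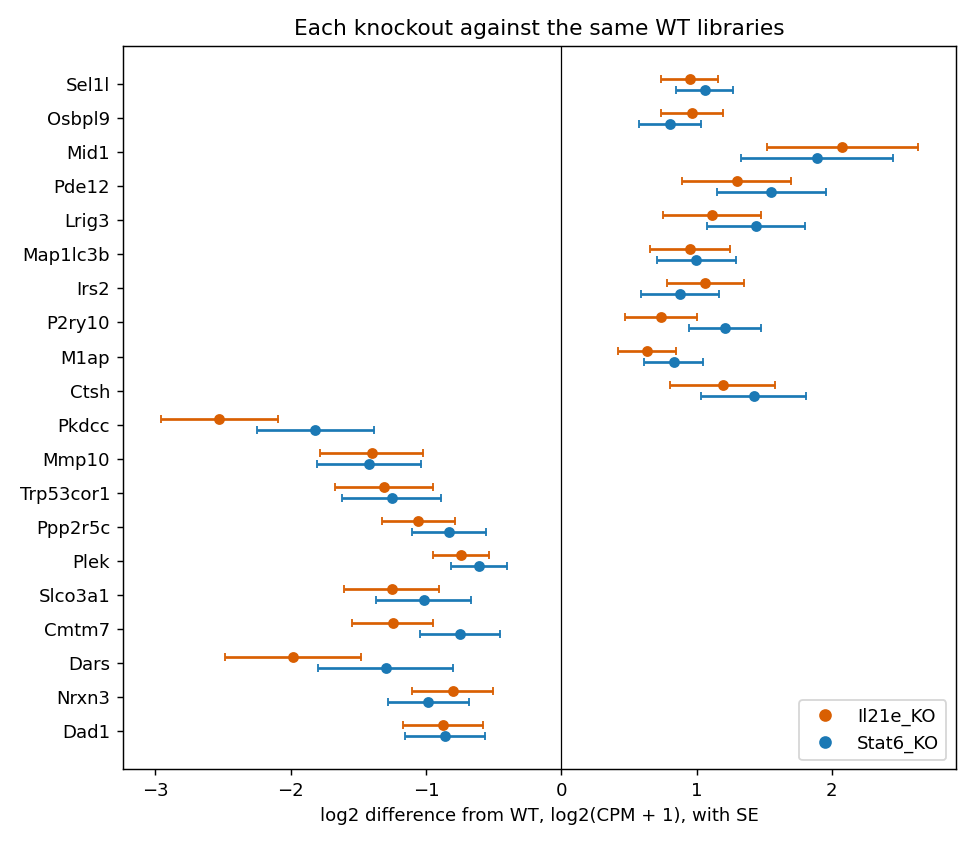
Points give the log2 difference from WT of each knockout at the same 20 peaks, on log2(CPM + 1), with bars of 1 SE; both use the same WT libraries. Values run from -2.53 in Il21e_KO and -1.82 in Stat6_KO at Pkdcc to 2.08 and 1.89 at Mid1.

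At all 20 of these peaks the 95% interval of the difference between the knockouts included 0. That does not show that the knockouts act alike, since the broad rule selects against such a difference and the intervals were wide. At Mmp10 it ran from -0.83 to 0.78 and at P2ry10 from -0.09 to 1.03.

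Several of the 163 peaks belonged to genes of T cell identity or signalling, chosen for naming after their values were seen. Foxo1, the quiescence factor, was higher at intron 1, at 10.1 to 14.8 CPM in WT and 18.1 to 20.02 in the knockouts. Runx1, a lineage factor, was higher at intron 2 (9.18 to 10.96 against 13.9 to 18.3 CPM), and so was a peak near Tnfaip3, an inhibitor of NF-kB (12.9 to 20.8 against 21.0 to 25.5 CPM). Peaks near Ifng, which encodes interferon gamma, and Gimap4, a GTPase of lymphocytes, were lower. The Ifng peak held 9.18 to 10.9 CPM in WT and 4.89 to 8.24 in the knockouts, and the Gimap4 peak 7.95 to 12.9 and 2.45 to 7.39. None of these passed with 9 or with 8 libraries (limma-trend adjusted p with 8 from 0.119 to 0.313). At the promoters printed above, Chac1, a glutathione-degrading enzyme gene, stood at 7.95 to 11.61 CPM in WT and 11.62 to 18.9 in the knockouts, and Itgb8, the integrin subunit that activates TGF-beta, at 14.8 to 23.4 and 8.83 to 14.2. Kif16bos, an antisense transcript of Kif16b, stood at 18.1 to 21.8 CPM in WT and 9.66 to 15.2 in the knockouts.

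Without Il21e_KO 1, 53 of 51056 tested peaks differed between the 5 knockout libraries and WT, 31 higher (0.0607%) and 22 lower (0.0431%) by limma-trend at an adjusted p under 0.05. An unadjusted p under 0.05 was reached by 5220 peaks (10.2%). Each knockout moved the same way at 31 higher (0.0607%) and 19 lower (0.0372%) of them under the strict rule. In these 50 the Il21e_KO side rests on 2 libraries. The 3 others were low in Stat6_KO alone. Near Scpep1os, Il21e_KO differed from WT by -0.20 ± 0.31 and Stat6_KO by -4.60 ± 0.27 (log2, SE), and the peaks near Snx13 and Il12b were likewise at -0.09 and -0.03 in Il21e_KO. Of the 163 peaks of the broad rule, 15 were among the 53. Here the filter asked for its minimum count in only 2 libraries, so a peak high in 1 group alone could be tested.

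Left out of that comparison, Il21e_KO 1 lay clear of WT on the side of the other knockouts at only a minority of the 50 peaks. It lay clear of WT on the opposite side about as often. At the 31 higher peaks it was above all 3 WT libraries at 13, within their range at 9 and below all of them at 9. At the 19 lower peaks it was below all WT at 5, within the range at 4 and above all of them at 10. The lower peaks were strong ones, with a median WT mean of 35.4 CPM, and the higher peaks weak ones, at 5.92 CPM. The same tilt ran through all tested peaks in that comparison. Over 4 bins of equal size, from the weakest to the strongest peaks, the median log2 difference without Il21e_KO 1 was 0.10, 0.05, -0.02 and -0.07, while with 9 libraries it lay between -0.03 and -0.02 in every bin. TSS peaks had a median of -0.08 with 8 libraries. With the TSS share of reads as a covariate, 84 peaks were called, 74 of them higher; 18 of the 53 were among them, and all 53 kept their direction. The part of the tilt in the calls was not tested further.

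**Figure D4:**
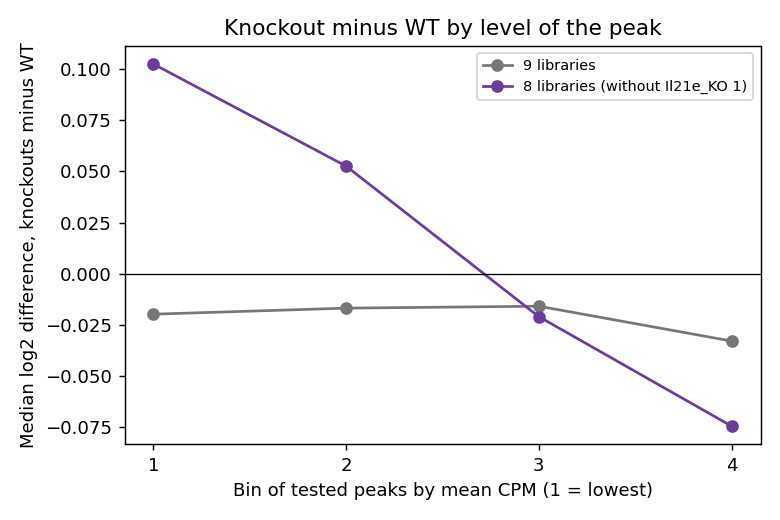
Points give the median log2 difference, knockouts minus WT, in 4 equal bins of tested peaks ordered by mean CPM, for all 9 libraries (grey) and without Il21e_KO 1 (purple). The 8-library line goes from 0.10 in the weakest to -0.07 in the strongest bin, and the 9-library line stays between -0.03 and -0.02.

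Among the lower calls were peaks of Il7r and Ets1, 2 of the 465 tested peaks of the list of naive and quiescent genes. A peak of the survival gene Bcl2 was a higher call, so no direction for such genes is read from them. The genes named in this paragraph and the next were chosen after their values were seen. Il7r, the receptor chain for interleukin-7, fell at a peak in intron 1, 0.898 kb from the TSS (chromosome 15, 9457665 to 9458734). WT held 41.0, 34.3 and 31.0 CPM, Il21e_KO 43.8, 23.3 and 19.97, and Stat6_KO 21.0, 18.3 and 14.7. Il21e_KO 1, at 43.8 CPM, was above every WT library, and the 5 others below them. The log2 difference was -0.84 ± 0.15 (SE; limma-trend adjusted p = 0.00598) with 8 libraries and -0.65 with 9, where it did not pass. It was a call in 19 of 22 settings with 8 libraries. Ets1, an ETS factor of T cell survival, fell at intron 5 (chromosome 9, 32551114 to 32551747), from 18.4, 17.9 and 23.2 CPM in WT to 10.1 and 11.1 in Il21e_KO 2 and 3 and 12.5, 9.42 and 9.79 in Stat6_KO, with Il21e_KO 1 at 26.7. Smad3, a transducer of TGF-beta, fell at intron 1, from 22.0 to 25.2 CPM in WT to 12.8 to 16.5 in the 5 knockout libraries, with Il21e_KO 1 at 33.4. Ets1 was called in 16 and Smad3 in 10 of 22 alternative settings. Thada intron 21 and the promoters of Vamp4 (vesicle fusion), Cisd2 (a mitochondrial outer membrane protein), Ibtk (an inhibitor of Bruton's kinase), Kpna1 (nuclear import) and Cdc14a (a phosphatase) fell too, by 0.41 to 0.67 on the log2 scale. Il21e_KO 1 was above every WT library at Vamp4 (64.8 CPM), Cisd2 (37.2), Ibtk (75.3) and Kpna1 (59.1). It was within the WT range at Thada and Cdc14a. Of 22 alternative settings, Thada was called in 15, Vamp4 in 12, Cisd2 in 14, Ibtk in 10, Kpna1 in 8 and Cdc14a in 11.

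Higher calls included Bcl2, the survival protein, at intron 1 (chromosome 1, 108536532 to 108537018). It held 6.12, 3.89 and 7.74 CPM in WT, 10.7 and 11.1 in Il21e_KO 2 and 3, and 14.8, 11.2 and 12.8 in Stat6_KO, with Il21e_KO 1 at 4.76 (log2 0.95 ± 0.21, SE; limma-trend adjusted p = 0.0432). This call was made in 8 of 22 settings. Dusp10, a phosphatase that switches off JNK and p38 kinases, rose at intron 2 (chromosome 1, 185881201 to 185881899), from 6.73, 7.79 and 4.51 CPM in WT to 9.45 and 12.8 in Il21e_KO 2 and 3 and 18.2, 16.5 and 15.9 in Stat6_KO, with Il21e_KO 1 at 5.72. Csrnp1, a nuclear protein induced by axin, rose at its end, from 28.8, 31.1 and 16.8 CPM in WT to 35.5 to 44.9 in the 5 knockout libraries, and Il21e_KO 1, at 31.4, lay above WT too. Dusp10 and Csrnp1 were each called in 16 of 22 alternative settings. On chromosome 11, Sox30, a germ cell factor, rose at its TSS and Adam19, a metalloprotease gene, at a 5′ untranslated exon (1.18 and 1.10 on the log2 scale). Il21e_KO 1, at 2.86 CPM at both, lay below every WT library (5.45 to 6.12 and 3.89 to 5.80 CPM). Sox30 was called in 19 and Adam19 in 12 of 22 alternative settings. No WT library reached the minimum count of the filter at Adam19, and only 1 did at Sox30. Both peaks were thus tested because the knockouts were high, and their separation was partly set by the filter.

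**Figure D5:**
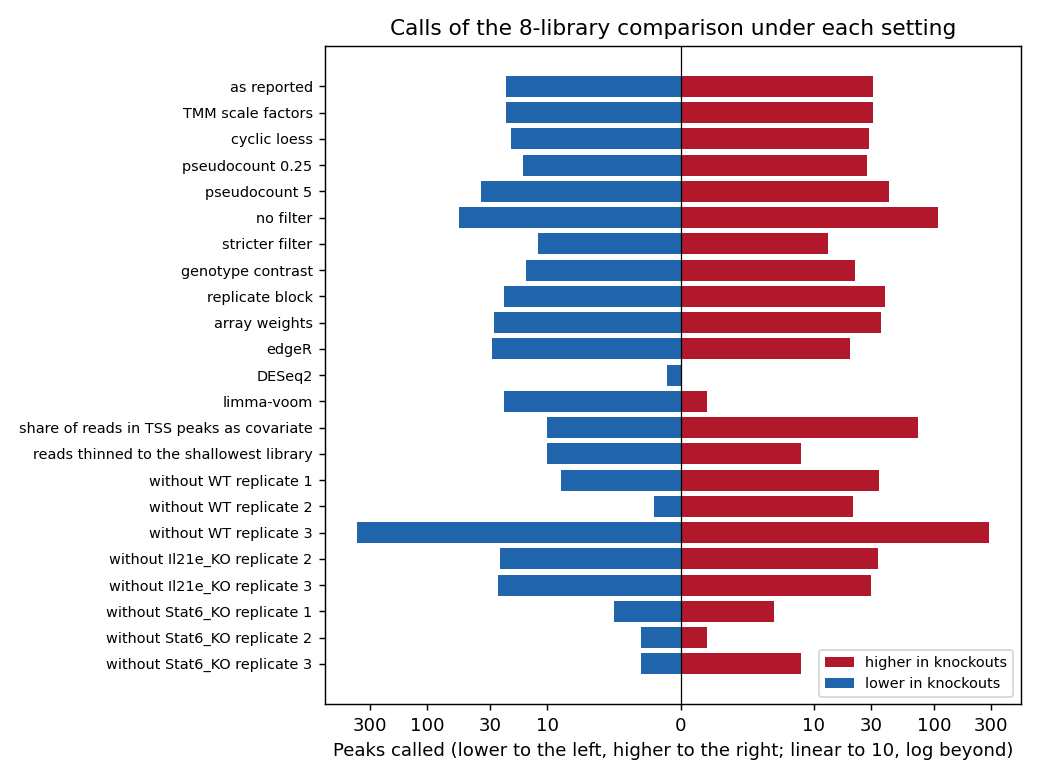
Bars give the peaks called without Il21e_KO 1 under each setting, higher in the knockouts to the right and lower to the left, on an axis that is linear to 10 and logarithmic beyond. The count is 53 as reported, 1 with DESeq2, 5 without Stat6_KO 2 and 675 without WT 3.

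The count of 53 moved with the libraries and the tool, as the plot of calls by setting shows. DESeq2 called 1 peak, limma-voom 25 and edgeR 49, and thinning all libraries to the same total of reads in peaks (1284426) left 19, of which 14 were among the 53. Leaving out a further library gave 5 (without Stat6_KO 2) to 675 (without WT 3).

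For 17 genes of cytokine signalling and T cell fate, the tested peak nearest the TSS is given whatever its p. With 9 libraries 4 were higher and 13 lower, 3 had an unadjusted p under 0.05 (2.56% of all tested peaks did) and 0 were called. With 8 libraries 6 of the 17 had an unadjusted p under 0.05, beside 10.2% of all tested. The receptors and signal carriers were close to WT. Stat6 itself held 83.8, 71.6 and 56.7 CPM in WT, 71.5, 68.1 and 62.7 in Il21e_KO and 64.2, 63.0 and 68.5 in Stat6_KO (log2 -0.08 ± 0.12, SE). A promoter peak does not check the knockout, since the labels do not give the deleted part. Il4ra, the interleukin-4 receptor (0.02 ± 0.20), Il21r, the interleukin-21 receptor (0.00 ± 0.18), and Il7r at its TSS (-0.19 ± 0.21) overlapped WT in their CPM. The feedback inhibitors Socs3 and Cish were at 0.11 ± 0.21 and -0.06 ± 0.15. Socs3 stood at 82.9 CPM in Il21e_KO 1 against 35.8 to 42.8 in the other knockout libraries.

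Among the fate regulators, Cxcr5, the chemokine receptor that brings follicular helper cells to B cell follicles, was the only 1 of the 17 with separated groups (0.849% of all tested peaks were separated upward and 1.07% downward). Its promoter peak (chromosome 9, 44334258 to 44335245) held 31.8, 23.4 and 21.3 CPM in WT, 15.2, 18.9 and 17.8 in Il21e_KO and 15.3, 16.5 and 17.7 in Stat6_KO. The log2 difference was -0.55 ± 0.17 (SE; unadjusted p = 0.0045, limma-trend, adjusted p = 1 with 9 libraries and 0.177 with 8). Bcl6, the master regulator of follicular helper cells, was at -0.24 ± 0.17 and overlapped. Ahr, a ligand-activated factor, was at -0.51 ± 0.21 in the pooled fit. Il21e_KO held 50.5, 47.9 and 36.1 CPM and Stat6_KO 30.7, 24.7 and 23.9, against 54.5, 49.8 and 43.9 in WT, so that the Stat6_KO libraries were the lowest 3. Without Il21e_KO 1, Stat6_KO alone passed against WT at -0.88 ± 0.14 (SE; limma-trend adjusted p = 0.000401), and Il21e_KO was at -0.24 ± 0.16 (limma-trend adjusted p = 0.812). The pooled difference (adjusted p = 0.0528, limma-trend) and that between the knockouts (adjusted p = 0.255, limma-trend) missed. Tbx21, the Th1 factor, was at -0.32 ± 0.17, Gata3, the Th2 factor, at -0.08 ± 0.18, and Foxp3, the regulatory T cell factor, at -0.38 ± 0.23, given by a peak in exon 4. Il2, the T cell growth factor, was at -0.02 ± 0.18.

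The naive cell genes had values on both sides of WT. Tcf7, which encodes TCF1, held 78.9, 87.2 and 64.5 CPM in WT and 58.3 to 67.1 in the knockouts (log2 -0.26 ± 0.11, SE). Lef1, its relative, was at 0.24 ± 0.22, with 41.9 CPM in Il21e_KO 1 against 18.9 to 23.3 in the other knockout libraries. Ccr7, the lymph node homing receptor, was at -0.39 ± 0.24 with 9 libraries and -0.58 with 8 (limma-trend adjusted p = 0.156), and Il21e_KO 1 stood above WT there too, at 30.5 CPM against 19.3 to 21.0. The memory marker Cd44 was at 0.26 ± 0.15. Adjusted over all tested peaks, 0 of the 17 passed with 8 libraries.

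Lists of genes by pathway are described by counts and medians, beside the median of -0.02 over all tested peaks, of which 0.199% were higher and 0.139% lower under the broad rule. At these shares a count of 0 or 1 in a list is no result about the list. In the list of IL-4 and STAT6 response genes, 0 of 90 peaks were called or in the broad set, with a median of 0.01. The list of IL-21 and STAT3 response genes had 0 of 138, at -0.03, and JAK and STAT signalling 0 of 126, at -0.02. Among fate lists, Th2 had 0 of 59 peaks in the broad set (median -0.02), Th1 had 1 lower of 76 (the Ifng peak, -0.08), Th17 0 of 43 (-0.10), follicular helper 1 lower of 127 (the Cxcr5 promoter, -0.06) and regulatory T 0 of 72 (-0.07). Naive and quiescent genes had 1 higher of 449 peaks (Foxo1, median -0.05), T cell receptor response 1 lower of 174 (Nfatc1, 0.02), T cell receptor signalling 1 lower of 248 (-0.03), interferon response 0 of 38 (-0.06), memory and effector 1 lower of 71 (Itgb1, -0.09) and ubiquitous genes, a control list, 1 lower of 54 (-0.01). With 8 libraries the calls in lists were the Il7r and Ets1 peaks, both lower, 2 of 465 peaks of naive and quiescent genes (0.0431% lower over all tested), and the Dusp10 peak, higher, 1 of 182 peaks of T cell receptor response genes (0.0607% higher over all tested).

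The 3 called peaks nearest to the threshold of 0.05 with 8 libraries were those of Trp53cor1, Kpna1 and Fam107b (adjusted p = 0.0443 each, limma-trend), and the nearest outside were those of Pcgf5, Ahr and Coro2a (0.0516, 0.0528 and 0.0534). With 9 libraries no peak lay inside, and the nearest were those of Sel1l, Pkdcc and Osbpl9.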

How the data were processed

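The deposited table lists 115727 peaks on mm9 with CPM per library. Bowtie 1.3.0, MACS2 2.0 and HOMER are named in the submitters' processing notes, which do not state their roles. Per the file headers each column is 1 library; the authors' CPM, scaled to reads in the listed peaks, were whole multiples of a step of 1 read in 100% of values (within 0.01), so reads were recovered. Reads copied by PCR are not independent, and 1 read equalled 0.555 to 0.953 CPM.

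Peaks were filtered with filterByExpr (edgeR 4.0.16; minimum count 10, total 15), leaving 48287 and setting aside 67440, or 51056 tested without Il21e_KO 1. In R 4.3.3, limma 3.58.1 (limma-trend) compared 6 knockout with 3 WT libraries on log2(CPM + 1), Benjamini-Hochberg adjusted over all tested peaks at 0.05. Per-genotype values came from a fit with 1 coefficient per genotype. DESeq2 1.42.0, edgeR on the recovered reads, other scalings, filters and left-out libraries were alternatives. The number of alternative settings given for a peak leaves out those in which it was not tested. The script was tested on simulated data. Library measures were compared by exact permutation.

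Gene assignments follow the table, and intergenic peaks were given the nearest TSS it lists. The text names the 10 peaks per direction with the smallest p under the broad rule (1 per gene, without pseudogenes or unnamed loci, filling in for calls, of which there were 0), 17 fixed genes, and 3 peaks on each side of the threshold. Others are said to be chosen after their values were seen. The members and gene lists were chosen with earlier results of these data known. Some items are not reported here.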

Additional observations from a re-analysis of the deposited data

Results flagged for a closer look

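Among the 6 knockout libraries, 1 sample lay far from the others in several measures, and it was Il21e_KO 1 each time. The gap to its nearest neighbour, as a share of the range over the 6 libraries, was 0.714 for reads in peaks, 0.912 for peaks without a read and 0.85 for the share of reads in TSS peaks. The same held at the promoter peaks of Lef1 (0.807), Ccr7 (0.782) and Socs3 (0.85), where this library was the highest. The rule was run at the 20 named peaks and at the peaks of the 17 fixed genes, and no other peak was flagged. Chance alone sets about 1 in 20 groups apart in this way, so a few flagged peaks would arise by chance. The 6 measures share that library.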

How the results depend on the processing

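The 0 calls with 9 libraries became 1 with the genotype contrast, with edgeR and with DESeq2 (the Pkdcc peak with the latter 2), 15 with array weights, 28 with WT and Stat6_KO alone, 44 without Il21e_KO 1 and WT 1 together, and 31 with the TSS share as a covariate. Leaving out 1 library gave 0 to 53, and 0 in each case but Il21e_KO 1. Under the strict rule the counts were 14 with array weights, 1 with edgeR, 41 without both libraries and 29 with the covariate (0 to 50 leaving out 1 library). The 163 peaks of the broad rule became 861 with no filter, 77 with a stricter filter, 259 with array weights, 1095 without both libraries and 90 with thinned reads (109 to 835 leaving out 1 library). Of the 20 named peaks, 5 were called with array weights and without both libraries, 1 with edgeR and with DESeq2, 3 with WT and Stat6_KO alone and 12 with the covariate (0 to 10 leaving out 1 library). The difference between the knockouts at the peaks of the broad rule gave 0 peaks in each setting run. The rule itself selects against such a difference, so this count is no result about the knockouts. The covariate, the thinned reads and all settings with 8 libraries were chosen after seeing the data, and the cause of these changes was not tested.

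With 8 libraries the 53 calls became 163 with no filter, 25 with a stricter filter, 1 with DESeq2, 25 with limma-voom, 84 with the covariate and 19 with thinned reads (5 to 675 leaving out a further library). The 50 of the strict rule became 154, 23, 19 (limma-voom), 82 and 15, and 33 with the genotype contrast (5 to 660). Without Il21e_KO 1 the difference in peaks without a read, knockouts minus WT, was -5510 (-5510 to -629 leaving out 1 library). The differences in TSS share (-2.01 to 0.477 percentage points) and in reads in peaks (-3817 to 206700) changed sign, the former without WT 1 (0.477), WT 2 (0.0700) or Stat6_KO 1 (0.221), the latter without WT 2 (-3817).

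Promoter differences close to 0 changed sign. For Il2 the log2 value was 0.0092 with TMM, 0.098 with array weights, 0.035 with edgeR, 0.033 with DESeq2, 0.0017 with limma-voom and 0.054 with Stat6_KO alone (-0.098 to 0.091 leaving out 1 library, 0.064 without Il21e_KO 1 and 0.025 without Stat6_KO 1). For Il21r it was 0.022 with TMM, 0.014 with cyclic loess, 0.070 with array weights, 0.056 with edgeR, 0.051 with DESeq2, 0.025 with limma-voom and 0.023 with Stat6_KO alone (-0.078 to 0.084; 0.060 without Il21e_KO 1 and 0.048 without Stat6_KO 1). Il4ra gave -0.094 with array weights, -0.097 with Stat6_KO alone, -0.059 without both libraries and -0.045 with thinned reads (-0.17 to 0.20; -0.072 without Il21e_KO 1). Socs3 gave -0.093 with array weights and -0.15 with Stat6_KO alone (-0.067 to 0.25). Cish gave 0.031 with Il21e_KO alone (-0.18 to 0.035). Stat6 gave 0.033 and Gata3 0.022 without both libraries (-0.22 to 0.054 and -0.16 to 0.020).

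Same-numbered libraries share only a number: 2 of 9 same-numbered pairs of libraries had a correlation of deviations over 0.1 (-0.19 to 0.25). With the replicate block 0 peaks were called with 9 libraries, the broad rule gave 129 and the 8-library comparison 62. A median SE of 0.21 on the log2 scale with 9 libraries limits what could be detected, and weak peaks hold few reads.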
